A study of Mus musculus with 6 samples.

Results

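The genes described here are 6 rows of the count table whose symbols are Ly6a, Ly6c1, Ly6c2, Ly6e, Ly6d and Thy1, out of 51912 Ensembl mouse gene IDs. Their RNA was sequenced from EL4, a lymphoma line of mouse T cells whose genotype is labelled WT. The RGFP966 group (3 libraries) received 10 µM of RGFP966, which inhibits histone deacetylase 3 (HDAC3), for 24 h, and the vehicle group (3 libraries) received vehicle for the same time. All libraries come from 1 cell line, and nothing in the labels says that they were grown as separate cultures. The p-values therefore measure the spread between these libraries, which may be technical. The members were chosen by symbol as a family, and the family was selected on its levels in RGFP966 against vehicle of these same libraries. Their differences are therefore given as a description, without p-values. Where a call is stated for a member, it is part of that description and supports nothing. Nothing is read from how many of the members passed a threshold.

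Ly6 proteins are small surface proteins held in the outer membrane leaflet by a glycosylphosphatidylinositol (GPI) anchor, a lipid that is attached in the endoplasmic reticulum. They share a compact fold of finger-like loops pinned by disulphide bonds, which is also found in the urokinase receptor (uPAR). In the mouse many of their genes lie together on chromosome 15, several are induced by interferons, and their products have long served as antibody markers of lymphocyte and progenitor stages. Thy1 encodes Thy-1 (CD90), a GPI-anchored protein with an immunoglobulin fold that marks mouse T cells and is also found on neurons, including those of the retina.

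Sequences of the 3 most similar members are shown because their likeness limits how reads can be assigned to each gene. The coding sequence of Ly6c1 was 97.7% identical to that of Ly6c2 over 396 bases, with an unbroken identical run of 188 bases, and 82.0% identical to that of Ly6a. Ly6e, Ly6d and Thy1 had 40.4% to 48.3% identity with any other member, apart from Ly6a and Ly6e with 212 identical of 424 columns, and no identical run over 9 bases. The stretch of 60 coding bases most alike in Ly6a, Ly6c1 and Ly6c2 lies near the end of the coding sequence. It starts at base 337 of the Ly6a coding sequence and at base 328 of the other two, counted from the A of the start codon, and 59 of its 60 positions are the same in all of them. The capital marks the position that differs (GENCODE M21 transcripts, GRCm38, chromosome 15, coding strand).
Ly6a: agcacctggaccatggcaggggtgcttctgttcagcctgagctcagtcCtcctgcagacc
Ly6c1: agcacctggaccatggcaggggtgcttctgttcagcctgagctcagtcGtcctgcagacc
Ly6c2: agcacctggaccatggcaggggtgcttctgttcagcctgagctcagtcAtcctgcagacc
The stretch least alike starts at base 167 in each. There Ly6a differs from Ly6c1 and Ly6c2 at 20 of 60 positions, in capitals, while Ly6c1 and Ly6c2 do not differ from each other.
Ly6a: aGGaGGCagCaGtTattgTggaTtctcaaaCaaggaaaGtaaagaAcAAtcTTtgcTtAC
Ly6c1: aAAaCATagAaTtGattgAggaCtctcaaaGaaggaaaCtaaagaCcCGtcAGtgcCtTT
Ly6c2: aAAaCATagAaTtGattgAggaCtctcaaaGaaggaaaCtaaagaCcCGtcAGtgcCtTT
The stretch in which Ly6c1 and Ly6c2 differ most starts at base 6, and they differ there at 6 positions, in capitals.
Ly6c1: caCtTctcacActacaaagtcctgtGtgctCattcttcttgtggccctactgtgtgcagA
Ly6c2: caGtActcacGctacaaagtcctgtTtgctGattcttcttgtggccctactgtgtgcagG
Over whole transcripts, 32.8% of the 50-base words of Ly6c1 also occur in transcripts of another gene (most of them in Ly6c2), as do 19.0% of those of Ly6a (most in Ly6c1) and 14.5% of those of Ly6c2, against 0% for Ly6e, Ly6d and Thy1. Counts of Ly6c1 and Ly6c2 are therefore uncertain as separate values, and no source used here says how the authors counted reads that match more than 1 gene. No member exon overlaps an exon of another annotated gene.

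RefSeq promoters (GRCm38.p6) were at hand for Ly6c1 and Ly6c2, and are shown because both genes had higher counts with RGFP966. Each gene had 2 listed starts, and the one nearest its annotated gene start was used. The windows of the other starts are not shown. The 250 bases before the start used for each gene were 71.9% identical over 228 aligned columns. The motifs searched on both strands were the interferon-gamma activated site TTCNNNGAA, the interferon-stimulated element core (GAAA, NN and GAAA in a row), the Runx motif TGTGGT, the GATA motif AGATAA and the TATA box TATAAA. Of 32851 promoters, 7.02%, 2.98%, 14.045%, 9.99% and 12.4% held each of these in that order. Capitals mark the matches. The TATA box letters begin 143 bases before the Ly6c1 start. The Runx letters, on the other strand, begin 179 bases before the Ly6c2 start. Both are matches of letters alone, and their use was not tested. The other letters searched were not found in either window.
Ly6c1 promoter, chr15:75048838-75049087, minus strand: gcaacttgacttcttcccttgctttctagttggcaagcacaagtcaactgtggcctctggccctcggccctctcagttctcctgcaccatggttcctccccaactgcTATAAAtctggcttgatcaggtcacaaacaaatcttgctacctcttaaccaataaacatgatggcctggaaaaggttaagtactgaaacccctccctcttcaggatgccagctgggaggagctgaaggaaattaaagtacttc
Ly6c2 promoter, chr15:75111972-75112221, minus strand: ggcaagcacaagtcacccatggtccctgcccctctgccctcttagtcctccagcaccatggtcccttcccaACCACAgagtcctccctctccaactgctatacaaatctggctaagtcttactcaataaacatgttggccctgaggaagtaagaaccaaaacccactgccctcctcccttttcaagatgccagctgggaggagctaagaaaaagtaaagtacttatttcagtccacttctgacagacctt

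Library totals were 12935443 to 14768540 counts in the RGFP966 group and 15380331 to 16451017 in the vehicle group, and no pair of libraries of a group agreed within counting error. Levels are given as CPM, the usual per-library rate of counts over the TMM-scaled library total. Of 13484 genes that passed the filter on low counts, 1543 (11.4%) were higher and 1602 (11.9%) lower with RGFP966 in edgeR's quasi-likelihood test at an adjusted p under 0.05. With upper-quartile scaling 59.1% of the calls were higher (1838 against 1270 lower), where the main scaling gave 49.1%. The labels' extraction text speaks of retinas, and Thy1 is also expressed there, so cell type markers were read first. All 12 T cell markers were above 1 CPM, summing to 2470 to 2492 CPM in RGFP966 and 2478 to 2495 CPM in vehicle libraries. The highest was Tcf7, with a mean of 1011 CPM over all libraries. The near-equal sums do not mean that single markers were unchanged. By edgeR 3 of the 12 were called higher (25.0%) and 4 lower (33.3%), beside the 11.4% and 11.9% of all tested genes. Of 16 retina markers 12 were below 1 CPM, 5 had no count at all (Gnat1, Crx, Opn1mw, Rpe65 and Pou4f2), and their sum was 25.6 to 26.2 CPM in RGFP966 and 26.4 to 28.7 CPM in vehicle libraries, most of it from Pou4f1.

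Ly6a, Ly6c1, Ly6c2 and Ly6e were higher in all 3 RGFP966 libraries than in any vehicle library, with mean CPM 1.94, 3.20 and 2.79 times as high for Ly6a, Ly6c1 and Ly6c2 and 19.9% higher for Ly6e. Thy1, the most abundant member, was 5.62% higher in mean and also did not overlap between the groups. Ly6d was barely detected. Groups did not overlap for 5 of the 6 members, all in the higher direction. Of all tested genes, 17.8% showed RGFP966 libraries above vehicle libraries in this way, a share that leaves out untested genes such as Ly6c2 and Ly6d. The family was selected on these levels, so nothing is read from how many members did not overlap. Of the members, 4 passed the filter on low counts (Ly6a, Ly6c1, Ly6e and Thy1). The adjusted p of edgeR was under 0.05 for 3 of these, all higher, beside 11.4% of all tested genes called higher and 23.3% called in either direction, and nothing is read from that count. In bulk RNA, a larger share of cells that express a gene and more RNA per expressing cell cannot be told apart.

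**Figure D1:**
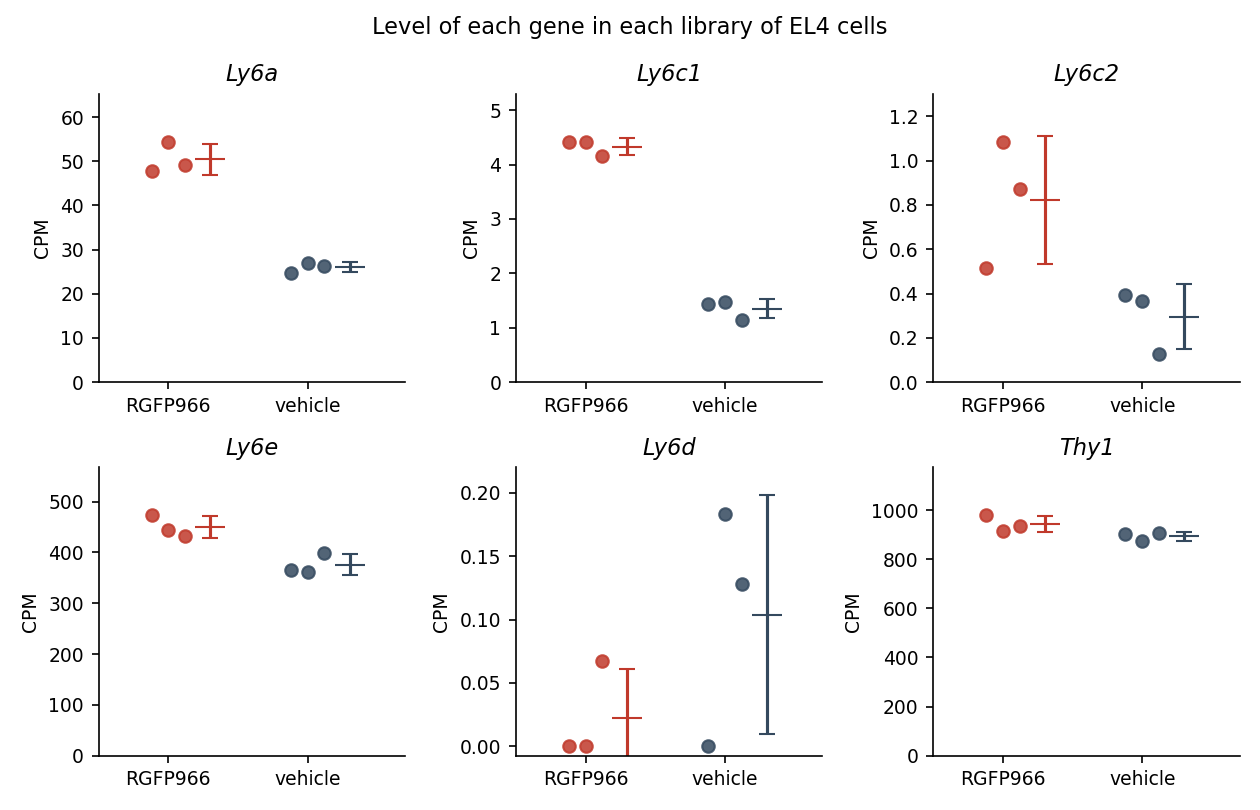
Level of each gene (y axis, CPM, scale differs by panel) in each of the 3 RGFP966 libraries (red) and the 3 vehicle libraries (dark grey), with mean and SD beside the points. Points of the groups do not overlap for Ly6a, Ly6c1, Ly6c2, Ly6e and Thy1, and Ly6d has 0 to 3 counts in any library.

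Ly6a encodes stem cell antigen 1 (Sca-1), a marker of mouse blood stem cells that is also induced on activated T cells. It lies on chromosome 15, 74994877 to 74998031 on the minus strand (GRCm38; ENSMUSG00000075602). It had 47.8, 54.4 and 49.2 CPM in RGFP966 libraries 1 to 3, against 24.8, 27.0 and 26.3 CPM in vehicle libraries 1 to 3. The lowest RGFP966 library was well above the highest vehicle library, and the spread within each group was small (coefficient of variation 6.97% in RGFP966 and 4.36% in vehicle libraries). The log2 fold change was 0.95 ± 0.07 (SE), and 176 of the 13484 tested genes had a larger one. Among the 5 Ly6 members, Ly6a made up 9.08% to 10.8% of the counts in RGFP966 and 6.16% to 6.91% in vehicle libraries.

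Ly6c1 and Ly6c2 encode the near-identical forms of the Ly-6C antigen, known from inflammatory monocytes, memory T cells and endothelium. Ly6c1 (chromosome 15, 75044018 to 75048830, minus strand, ENSMUSG00000079018) had 60, 57 and 62 counts in RGFP966 libraries 1 to 3, against 22, 24 and 18 counts in vehicle libraries 1 to 3. These correspond to 4.33 ± 0.150 CPM in RGFP966 and 1.35 ± 0.175 CPM in vehicle libraries (SD, n = 3 each). The groups were far apart on this low scale, with a log2 fold change of 1.67 ± 0.24 (SE) that 27 tested genes exceeded. Ly6c2 (chromosome 15, 75108158 to 75111970, minus strand, ENSMUSG00000022584) had 7, 14 and 13 counts in RGFP966 libraries, against 6, 6 and 2 counts in vehicle libraries, and was removed by the filter. Summed over libraries, its CPM was 2.80 times as high with RGFP966 (95% interval 1.46 to 5.65, exact, for counting error only), an interval that holds the 3.23 times of Ly6c1 (2.41 to 4.36). Over all genes, libraries of a group differed by more than counting error, so these intervals may be too narrow. They are no test of the difference between the groups. Ly6c1 took 84.0% of the joint Ly6c counts in RGFP966 libraries (Wilson 95% interval 78.5% to 88.4%) and 82.1% in vehicle libraries (72.1% to 89.0%). These shares differed by less than their counting error. With both rows summed to a single gene before the fit, the log2 fold change was 1.64 ± 0.22 (SE). The part of reads shared with Ly6a was not tested.

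Because Ly-6C also marks monocytes and endothelium, markers of those cells were read beside it. Of the 12 monocyte and granulocyte markers 9 were below 1 CPM, with Adgre1, Elane, S100a8 and S100a9 at 0, and their sum was 12.5 to 12.95 CPM in RGFP966 and 12.4 to 13.8 CPM in vehicle libraries. Most of that sum came from Lyz2. By edgeR 0 of the 3 tested were called. Itgam, named after its values were seen, had 1.49 CPM in RGFP966 and 0.763 CPM in vehicle libraries, without overlap between the groups. It was not called (log2 fold change 0.95 ± 0.37 SE, edgeR adjusted p = 0.0532), and Gm49368 overlaps 68.7% of its exons. Cd68, also named after its values were seen, was lower without overlap (-0.31), and Lyz2 measured -0.07. Of 10 endothelial markers 8 were below 1 CPM, with Kdr, Tie1 and Cldn5 at 0. Their sum was 66.8 to 70.0 CPM in RGFP966 and 55.5 to 57.4 CPM in vehicle libraries, most of it from Pecam1, which lymphocytes also express. Of the 3 tested, 2 rose and 0 fell, against 11.4% higher and 11.9% lower among all tested genes. Pecam1, named after its values were seen, had 62.1 ± 1.35 CPM in RGFP966 and 51.7 ± 1.58 CPM in vehicle libraries (SD, n = 3 each). It rose by 0.26 (log2, edgeR adjusted p = 3.24e-04). The other endothelial marker above 1 CPM, Tek, had 5.56 ± 0.662 CPM in RGFP966 and 3.76 ± 0.214 CPM in vehicle libraries (SD, n = 3 each). Named after its values were seen, it rose by 0.56 (edgeR adjusted p = 0.0181), a call lost without RGFP966 library 1 (adjusted p = 0.113) or vehicle library 3 (0.0614) and in the DESeq2 Wald test (0.0554). The part of these markers in the Ly6c1 difference was not tested.

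Ly6e encodes TSA-1 (Sca-2), an antigen of immature thymocytes that is broadly expressed and induced by interferon. It lies on chromosome 15, 74955051 to 74959905 on the plus strand (ENSMUSG00000022587). It had 473, 444 and 433 CPM in RGFP966 libraries 1 to 3, against 365, 362 and 399 CPM in vehicle libraries 1 to 3. The groups were separated by a narrower margin than for Ly6a, with RGFP966 library 3 nearest to vehicle library 3. The log2 fold change was 0.26 ± 0.04 (SE), and 1984 tested genes had a larger one. Most Ly6 reads came from this gene, 88.1% to 90.0% in RGFP966 and 92.6% to 93.5% in vehicle libraries.

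Ly6d encodes the ThB antigen of thymocytes and B-lineage progenitors. It lies on chromosome 15, 74762056 to 74763620 on the minus strand (ENSMUSG00000034634). It had 0, 0 and 1 counts in RGFP966 libraries 1 to 3, against 0, 3 and 2 counts in vehicle libraries 1 to 3. No difference was detectable at this depth, where a count of 0 allows a level of up to 0.195 to 0.232 CPM in the libraries without a count. Of 11 B cell markers 8 were below 1 CPM, with Ms4a1 at 0. Their sum was 20.2 to 20.7 CPM in RGFP966 and 13.2 to 13.7 CPM in vehicle libraries, most of it from Cd22, and its part in the results was not tested.

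Thy1 (chromosome 9, 44043384 to 44048579, plus strand, ENSMUSG00000032011) had 979, 916 and 935 CPM in RGFP966 libraries 1 to 3, against 902, 872 and 906 CPM in vehicle libraries 1 to 3. All RGFP966 values were the higher ones, but the gap between RGFP966 library 2 and vehicle library 3 was small beside the spread within either group. The log2 fold change was 0.08 ± 0.04 (SE), a size that 34.1% of all tested genes exceeded, and it was not called. It was called in 3 of 14 alternatives, with log2 fold changes of 0.10 with upper-quartile factors, 0.09 with total count alone and 0.09 at a minimum mean of 5 CPM.

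Per length, the members that passed the filter ran from near the top of the tested genes (Thy1) to Ly6c1, with 76.8% of tested genes above it. Ly6c2 and Ly6d, which the filter removed, stood lower. In CPM per kilobase of exon, Thy1 stood at 315 ± 10.8 in RGFP966 and 298 ± 6.15 in vehicle libraries (SD, n = 3 each), and 0.808% of tested genes had a higher mean over all libraries. Ly6e followed at 119 ± 5.54 in RGFP966 and 99.2 ± 5.48 in vehicle libraries, with 2.92% of tested genes above it. Ly6a stood at 41.9 ± 2.92 in RGFP966 and 21.6 ± 0.941 in vehicle libraries, with 13.3% above it. The order among these was the same in every library, each far from its neighbours. Ly6c1 came next at 2.58 ± 0.0896 in RGFP966 and 0.806 ± 0.104 in vehicle libraries, then Ly6c2 at 0.301 ± 0.105 in RGFP966 and 0.108 ± 0.0532 in vehicle libraries. Ly6c2 and Ly6d overlapped in vehicle libraries (0.0467 to 0.143 for Ly6c2 and 0 to 0.247 for Ly6d) and did not in RGFP966 libraries (0.188 to 0.396 for Ly6c2 and 0 to 0.0901 for Ly6d). The exon length of Ly6c2 includes a transcript with a retained intron. By the length of the first listed coding transcript, Ly6c2 stood at 1.00 in RGFP966 and 0.360 in vehicle libraries, still below Ly6c1 at 5.13 in RGFP966 and 1.60 in vehicle libraries.

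The 5 Ly6 members span 349.9 kb of chromosome 15, with 35.0 kb between Ly6e and Ly6a, 46.0 kb between Ly6a and Ly6c1 and 59.3 kb between Ly6c1 and Ly6c2. Of the 17 other annotated genes between Ly6d and Ly6c2, none passed the filter on low counts and all were below 1 CPM, with 8 at 0 in every library. They include Ly6i, a close relative that lies between Ly6e and Ly6a, at 0.164 ± 0.0964 CPM in RGFP966 and 0.129 ± 0.128 CPM in vehicle libraries (SD, n = 3 each). Ly6g, the granulocyte antigen gene beyond Ly6c2, had no count. Of 47 other genes within 500 kb of the members, 2 were tested, both on the Ly6d side and named after their values were seen. The log2 fold change of Them6 was -0.03 (edgeR adjusted p = 0.727) and that of Jrk, which encodes a protein with a DNA-binding domain, was -0.07 (adjusted p = 0.684). By edgeR 0 of the 2 were called, 0 had an unadjusted p under 0.05, and DESeq2 and limma-voom also called 0. Over all tested genes 11.4% were called higher and 11.9% lower, and 2 genes are too few to set against these shares.

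**Figure D2:**
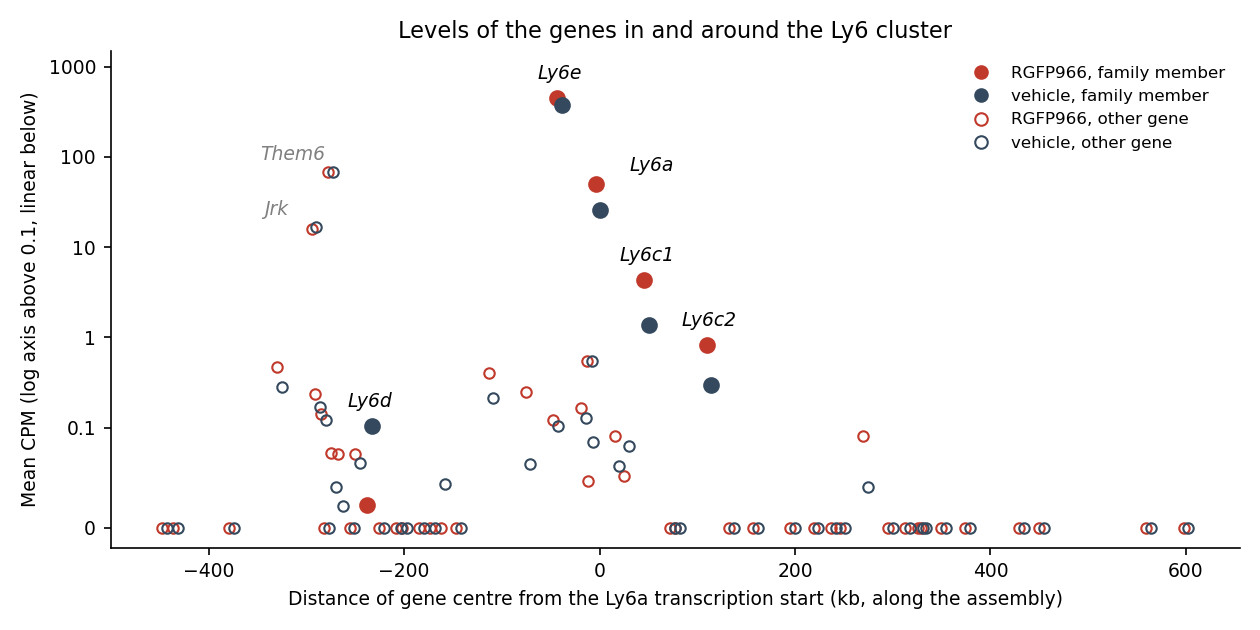
Mean CPM (y axis, logarithmic above 0.1 and linear below) of the genes in and around the Ly6 cluster against the distance of each gene's centre from the Ly6a start in kb, for RGFP966 (red) and vehicle (dark grey) libraries, slightly offset sideways. Filled points are the 5 Ly6 members and open points the 47 other genes, of which Them6 and Jrk are the 2 that were tested, at nearly equal levels in both groups.

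Around Thy1, 27 of 61 other genes within 500 kb were tested, and 4 were higher and 4 lower in edgeR's test. Over the whole table these calls made up 11.4% and 11.9% of tested genes. Around Thy1 the median log2 fold change was 0.04, beside -0.0019 for all tested genes. The long noncoding RNA gene Gm39323 lies 2.3 kb upstream of the Thy1 start, on the opposite strand. It had 9.41, 9.46 and 12.9 CPM in RGFP966 libraries 1 to 3, against 8.54, 5.88 and 6.52 CPM in vehicle libraries 1 to 3, and rose by 0.61 ± 0.15 (log2, SE, edgeR adjusted p = 1.51e-03). Farther on the same side, E230034D01Rik rose by 0.68 ± 0.23 (adjusted p = 0.0220) and Gm47345, which lies inside it on the opposite strand, by 0.88 ± 0.30 (adjusted p = 0.0276), both at under 3 CPM in every vehicle library. Their exons do not overlap and share no 50-base words. On the other side Hyou1, a chaperone of the endoplasmic reticulum, rose by 0.12 (adjusted p = 0.0278). Rps25, a ribosomal protein gene with 24.8% of its exons overlapped by Trappc4 and Ccdc84, fell by 0.15 (adjusted p = 1.42e-03). Vps11, of endosome fusion, fell by 0.18 (adjusted p = 0.0210), and C2cd2l by 0.17 (adjusted p = 0.0399). Leaving out 1 library gave 1 to 5 rises and 2 to 3 falls. E230034D01Rik lost its call without RGFP966 library 3 or vehicle library 2 or 3 (adjusted p 0.0606 to 0.0924), and Gm47345 without RGFP966 library 2 or 3 or vehicle library 2 or 3 (0.0801 to 0.191). Hyou1 lost it without RGFP966 library 1 or 3 or vehicle library 2 (0.0756 to 0.210). Vps11 lost it without RGFP966 library 2 or 3 or vehicle library 1 or 2 (0.0566 to 0.126), and C2cd2l without RGFP966 library 1 or 3 or vehicle library 1 or 3 (0.0689 to 0.241). In the DESeq2 Wald test the calls of E230034D01Rik, Gm47345, Vps11 and C2cd2l were lost (0.0654, 0.0803, 0.0723 and 0.118), and that of C2cd2l also with no filter (0.0539), a minimum mean of 5 CPM (0.0554), total count alone (0.0650) and upper-quartile factors (0.0837).

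**Figure D3:**
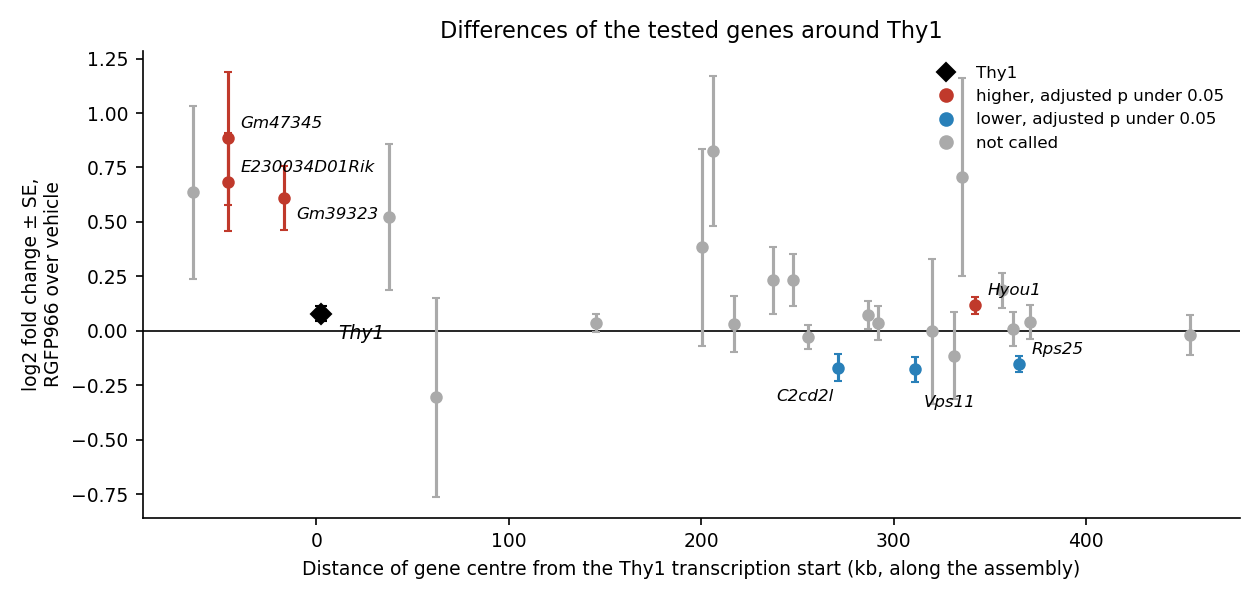
Log2 fold change of RGFP966 over vehicle with its standard error (y axis) for Thy1 (black diamond) and the tested genes within 500 kb (1 gene called lower is not drawn), against the distance of each gene's centre from the Thy1 start in kb. Gm39323 at 0.61 and the 2 called genes beyond it lie above Thy1 at 0.08, and called falls of 0.15 to 0.18 lie more than 250 kb to the other side.

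The wider Ly6 and uPAR domain family was nearly silent in EL4 cells. Of 35 listed relatives 34 were in the table, 29 had a mean below 1 CPM, 15 had no count, and 5 were tested. Of these 5, 1 was called higher and 0 lower, against 11.4% higher and 11.9% lower among all tested genes. Their median log2 fold change was 0.02, beside -0.0019 for all tested genes. The highest, Ly6g6f, averaged 4.28 CPM over all libraries. Ly6g6c, from the family's group on chromosome 17, had 2.65, 4.27 and 2.55 CPM in RGFP966 libraries, against 1.89, 2.204 and 1.73 CPM in vehicle libraries, and was the 1 gene called (log2 fold change 0.69 ± 0.25 SE, edgeR adjusted p = 0.0429). Its value was set by RGFP966 library 2, without which it was 0.41 (adjusted p = 0.349), and the call was also lost without vehicle library 1 (adjusted p = 0.0890) or 3 (adjusted p = 0.129), in the DESeq2 Wald test (0.109), in limma-voom (0.0762) and with no filter (0.0588). By edgeR 0 members fell, with 1 at an unadjusted p under 0.05 and 0 by DESeq2 and limma-voom. Ly6g6d, also on chromosome 17 and named after its values were seen, had 1.49 ± 0.219 CPM in RGFP966 and 2.40 ± 0.865 CPM in vehicle libraries (SD, n = 3 each). It was not called (log2 fold change -0.68 ± 0.30 SE, edgeR adjusted p = 0.0927). Ly6g6e, whose exons partly overlap those of Ly6g6d, was not tested and had 0.209 CPM in RGFP966 and 0.874 CPM in vehicle libraries. Both were lower without overlap between the groups, as were 18.5% of all tested genes.

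Other GPI-anchored surface proteins of lymphocytes were more often detected, with 9 of 17 tested. Of these 5 rose and 1 fell, against 11.4% higher and 11.9% lower among all tested genes. The median log2 fold change was 0.17 against -0.0019. This list, like the others, was chosen with earlier results of these data known, so nothing is read from these shares. Cd48, an adhesion ligand of the receptor CD2, rose by 0.30 ± 0.06 (log2, SE, edgeR adjusted p = 7.66e-05) to 58.8 ± 1.95 CPM in RGFP966 libraries, against 47.7 ± 1.37 CPM in vehicle libraries (SD, n = 3 each). Izumo1r, which encodes folate receptor 4 of regulatory T cells, rose by 0.58 (adjusted p = 6.11e-04), and Ulbp1, a ligand of the NKG2D receptor, by 0.17 (adjusted p = 1.79e-03). Cd52 rose by 1.11 (adjusted p = 9.31e-04) to 3.65 CPM in RGFP966, against 1.701 CPM in vehicle libraries, with 14.5% of its exons overlapped by Crybg2. Cd55, a complement regulator named after its values were seen, rose by 0.43 (adjusted p = 0.0274), a call lost without RGFP966 library 2 or 3 or vehicle library 1 or 3 (adjusted p 0.0670 to 0.136) and in the DESeq2 Wald test (0.0741). Prnp, the prion protein gene, fell by 0.28 (adjusted p = 0.0220), a call lost without RGFP966 library 1 (-0.20, adjusted p = 0.176), vehicle library 1 (0.0799) or vehicle library 2 (0.0595), and in the DESeq2 Wald test (0.0730).

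Of the genes that build and attach the GPI anchor, 29 of 31 listed were tested. Of these 4 rose (13.8%) and 1 fell (3.45%), against 11.4% higher and 11.9% lower among all tested genes, with a median log2 fold change of 0.01 against -0.0019 for all tested genes. Pgap1, which removes a fatty acid from the anchor after attachment, rose by 0.34 ± 0.08 (SE, edgeR adjusted p = 4.88e-04). Pigc, of the enzyme that starts anchor synthesis, rose by 0.33 (adjusted p = 1.54e-03) and Pigs, of the transamidase that joins anchor and protein, by 0.23 (adjusted p = 2.34e-03). Pgap2, of anchor lipid remodelling, with 13.4% of its exons overlapped by AC139579.1, rose by 0.24 (adjusted p = 0.0282), with an adjusted p of 0.0615 to 0.146 without RGFP966 library 2 or 3 or vehicle library 1 or 3 and of 0.0791 in the DESeq2 Wald test. Gpaa1, another transamidase subunit gene, fell by 0.17 (adjusted p = 0.0428), but its call was lost in 11 of 14 alternatives, among them those without RGFP966 library 1 or 2 or any vehicle library (adjusted p 0.0544 to 0.294). The most abundant of the list, Pigm and Pigq, had log2 fold changes of 0.08 (adjusted p = 0.179) and -0.06 (adjusted p = 0.361).

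Interferon receptors, JAK-STAT and interferon regulatory factor genes, through which Ly6a, Ly6c1 and Ly6e are known to be induced, were all tested. Of 12, 1 rose (8.33%) and 0 fell by edgeR, against 11.4% higher and 11.9% lower among all tested genes. In the lower direction 2 had an unadjusted p under 0.05 by edgeR, and DESeq2 and limma-voom called 0 lower. The log2 fold changes of the 12 ran from -0.20 to 0.14, with a median of 0.02 beside -0.0019 for all tested genes. The part of these genes in the Ly6 differences was not tested. Ifngr1, a chain of the interferon-gamma receptor, measured 179 ± 5.75 CPM in RGFP966 and 163 ± 5.85 CPM in vehicle libraries (SD, n = 3 each) and rose by 0.14 ± 0.04 (SE, edgeR adjusted p = 0.0115). That call was lost without RGFP966 library 2 (adjusted p = 0.0904) or vehicle library 1 (adjusted p = 0.0837). Jak1, a kinase shared by these receptors, was not called (log2 fold change 0.07, adjusted p = 0.210).

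GPI-anchored proteins signal through Src family kinases and adaptors that gather in membrane rafts. Of 8 tested genes of this kind 2 rose and 1 fell, against 11.4% higher and 11.9% lower among all tested genes, with a median log2 fold change of 0.03. Pag1, an adaptor that recruits the inhibitory kinase Csk, rose by 0.22 ± 0.05 (SE, edgeR adjusted p = 1.45e-03) to 76.7 ± 3.39 CPM in RGFP966 libraries, against 65.9 ± 3.46 CPM in vehicle libraries (SD, n = 3 each). Ptprc, the gene of the phosphatase CD45, also rose (0.22, adjusted p = 2.34e-06), and the adaptor gene Lat fell by 0.22 (adjusted p = 5.80e-06). Lck measured -0.07 (adjusted p = 0.280), Csk 0.00 (adjusted p = 0.963) and Cbl 0.03 (adjusted p = 0.614) as log2 fold changes. None of these 3 was called.

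**Figure D4:**
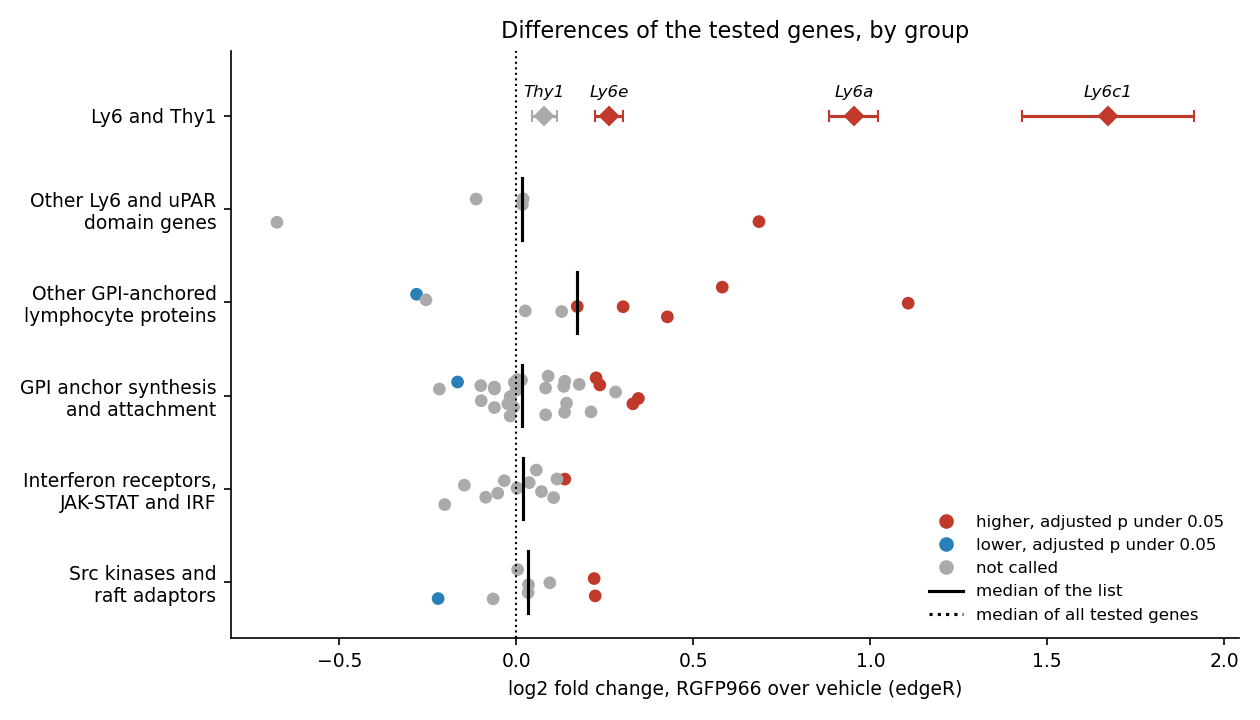
Log2 fold change of RGFP966 over vehicle (x axis) for the 4 tested members with standard errors (top row) and for the tested genes of 5 related lists, coloured by edgeR's call at an adjusted p under 0.05. Black bars are list medians, 0.01 to 0.17, and the dotted line is the median of all 13484 tested genes.

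By Pearson correlation of log2 CPM (pseudocount 0.5) over the 6 libraries, the named genes most like Ly6a were Lhpp, Tmx2, Dyrk4, Far1 and Esm1, with r of 0.997 to 0.998. The measure mostly follows the split between the groups, which all 6 points share, and 448 tested genes had an r of at least 0.95 with Ly6a. Their differences varied in size, from a log2 fold change of 0.13 for Tmx2 to 1.65 for Dyrk4. The genes most like Thy1 were Clcn5 (r = 0.994), Fmnl3, Dpf1, Rtl6 and Ddi2 (0.971 to 0.985), and 37 genes reached 0.95 with it.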

How the data were processed

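The deposited table holds raw read counts per Ensembl gene ID, made by the authors. The build was mm10 and the tools named were HTSeq 0.6.0, HISAT2 2.1.0, Bowtie2 2.2.3, TopHat2 and CASAVA, per the submitters' processing notes. Their roles, the annotation and the use of strand are not given. Of 51912 IDs, 51633 were matched to symbols in the gene name table, and positions are from GENCODE M21. No line was other than a gene.

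Counts of all 6 libraries were fitted in edgeR 4.0.16 (R 4.3.3) with group as the only term, filterByExpr defaults, TMM factors and its quasi-likelihood F test with robust dispersions. P-values were adjusted by Benjamini-Hochberg over all 13484 genes tested. The SE was obtained by dividing the size of a log2 fold change by the root of its F. The procedure was tested on simulated data. Alternatives used DESeq2 1.42.0 and limma 3.58.1.

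Members and lists were chosen with earlier results of these data known. Genes were named by rule: all members; per list, up to 4 called genes of smallest p in each direction and any above 100 CPM; per locus, up to 5; and the 5 genes most correlated with Ly6a and Thy1. Some genes under this rule are not reported here. Totals of 12935443 to 16451017 counts set the precision, and intervals cover counting error only, since duplicates cannot be told from separate molecules.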

Additional observations from a re-analysis of the deposited data

How the results depend on the processing

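The log2 fold changes of Ly6a, Ly6c1, Ly6e and Thy1 kept their direction under every alternative that gave a value. Uncalled genes near 0 changed sign when 1 library was left out, with ranges of -0.0225 to 0.0927 for Cbl (lower without vehicle library 2), -0.0307 to 0.0445 for Csk (lower without RGFP966 library 1 or vehicle library 2) and -0.0617 to 0.0176 for Them6 (higher without RGFP966 library 3 or vehicle library 1). Ly6a stayed between 0.90 and 0.99, Ly6e between 0.22 and 0.31 and Thy1 between 0.05 and 0.10 over 14 alternatives. Ly6c1 stayed between 1.57 and 1.74 and the Ly6c sum between 1.49 and 1.72 over 13, since a minimum mean of 5 CPM removes them. Calls over all genes were 1136 higher and 1132 lower in the DESeq2 Wald test, and 1238 to 1385 higher and 1116 to 1484 lower when 1 library was left out. Replicate numbers did not pair the libraries (same-number correlations of deviations from -0.02 to 0.01). With a replicate block 1667 genes were higher and 1764 lower, and no list count of the text moved by over 1.5 times. Small list counts moved most, and the cause was not tested. Among other Ly6 and uPAR genes, rises were 0 with no filter, at a minimum mean of 5 CPM, in DESeq2 and in limma-voom, and 0 to 1 without 1 library, while falls were 1 with no filter and 0 to 1 without 1 library. The fall among anchor synthesis genes was 0 with total count alone, upper-quartile factors, the 5 CPM minimum, no filter, DESeq2 and limma-voom, and 0 to 1 without 1 library. The fall among other GPI-anchored proteins was 0 in DESeq2 and 0 to 1 without 1 library, and the rise among interferon genes 0 to 1. Around Thy1, rises were 2 at the 5 CPM minimum and in DESeq2 and 1 to 5 without 1 library, and falls 2 in DESeq2 and 2 to 3 without 1 library. Depth limits Ly6d and Ly6c2, whose libraries held at most 3 and 14 counts.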
